A study of Homo sapiens with 4 samples.

Results

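The E2F transcription factor genes E2F1, E2F2, E2F7 and E2F8, the cyclin genes CCNE1, CCNE2 and CCNA2, the phosphatase gene CDC25A, the pocket protein gene RBL1 and the MYB family gene MYBL2 were examined in HCT116 cells treated with HJ-4. These 10 genes were taken by name from a table of 20263 Ensembl gene IDs, all 10 were found, and all 10 passed the filter on low counts. HCT116 is an established human colorectal carcinoma line, labelled WT in every library, and HJ-4 is a derivative of piperine, an alkaloid of black pepper. RNA was sequenced from 2 libraries of cells given 32 µM HJ-4 for 24 h and from 2 libraries of cells given the vehicle, 0.1% DMSO, for 24 h. The labels and the methods give this dose, while a figure legend of the paper names another for the sequenced cells. The methods describe biological triplicates. The labels do not tie the 2 libraries of either treatment to cultures of their own, so the p-values cover library-to-library spread alone, and that spread may be technical.

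The libraries held 34359889 and 33762230 counts with HJ-4 and 31120459 and 29769568 counts with DMSO, and same-treatment libraries were further apart than counting error gives. Of 10 colon epithelial markers, 7 were tested, with EPCAM at 244 to 251 CPM (counts relative to the TMM-scaled library size) with HJ-4 and 247 to 268 CPM with DMSO, while CDX1 was at 0 in every library and VIL1 and GPA33 had at most 14 counts. Of the 7 tested, edgeR gave 2 an unadjusted p under 0.05, both in the higher direction, against 7.93% of all genes tested in that direction. These were the cadherin genes CDH1, at 101 and 108 CPM with HJ-4, against 83.4 and 73.5 CPM with DMSO, and CDH17, at 27 and 20 counts with HJ-4, against 5 and 8 counts with DMSO. DESeq2 called CDH1 higher (log2 fold change 0.41, adjusted p = 0.029). The HJ-4 libraries also lay above both DMSO libraries for KRT18, below both for CDX2, and overlapped with them for EPCAM, KRT8 and KRT19. CDX2 had 11.5 and 12.7 CPM with HJ-4, against 13.2 and 13.9 CPM with DMSO. The median log2 fold change of the 7 markers was 0.017. Of 8 markers of leukocytes, fibroblasts and endothelium, CD3E, COL1A2 and DCN were at 0 in every library, PTPRC and PECAM1 had at most 3 counts, and COL1A1, CD68 and VWF were tested, of which CD68 had an unadjusted edgeR p under 0.05 in the higher direction, with summed levels of the tested markers at 106 to 112 CPM with HJ-4 and 94.0 to 104 CPM with DMSO. The part of these differences in the values of the 10 genes was not tested.

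E2F factors are the transcription factors through which the retinoblastoma pathway controls entry into S phase. Activator E2Fs turn on the genes of DNA replication and of cyclins E and A. The pocket proteins RB1, RBL1 (p107) and RBL2 (p130) bind E2Fs and hold these genes down until cyclin-dependent kinases phosphorylate them. Cyclin E with CDK2 continues this phosphorylation late in G1, cyclin A takes over in S phase, CDC25A removes inhibitory phosphates from CDK2, and the atypical factors E2F7 and E2F8 repress the same target genes later in S phase. The CDK inhibitor p21 acts at the same step.

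Transcripts of the activators E2F1 and E2F2, of the pocket protein gene RBL1, and of CCNE2, CCNA2, CDC25A and MYBL2 were less abundant in both HJ-4 libraries than in either DMSO library, those of CCNE1 were more abundant, and those of E2F7 and E2F8 overlapped. In bulk RNA of this kind, fewer cells in a phase of the cycle and less RNA per cell cannot be told apart. The log2 fold changes (HJ-4 over DMSO) ran from -1.31 for CCNE2 to 0.22 for CCNE1, with a median of -0.40 over the 10 genes, against a median of 0.00 over the 14044 genes tested. By edgeR's quasi-likelihood test with Benjamini-Hochberg adjustment over all genes tested, 0 of the 10 had an adjusted p under 0.05, against 0.0498% of all genes (7 genes). At an unadjusted p under 0.05 in edgeR, 6 of the 10 were lower with HJ-4 and 0 were higher, where 7.93% of all genes were lower and 7.93% were higher. DESeq2 called 3 of the 10 lower at an adjusted p under 0.05 (CCNE2, E2F2 and MYBL2), against 1.76% of all genes. Shares of all genes called by DESeq2 count those to which it gave no adjusted p, such as CDH17, as not called. Both HJ-4 libraries lay below both DMSO libraries for 7 of the 10 genes and above them for 1, against 25.6% and 25.2% of all genes. The count of 6 was 2 without HJ-4 replicate 1 and 3 without HJ-4 replicate 2, and 4 and 6 without DMSO replicate 1 and DMSO replicate 2. Each of these fits sets 1 library against 2, takes its spread from the pair alone and assumes that the lone library varies like it.

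**Figure D1:**
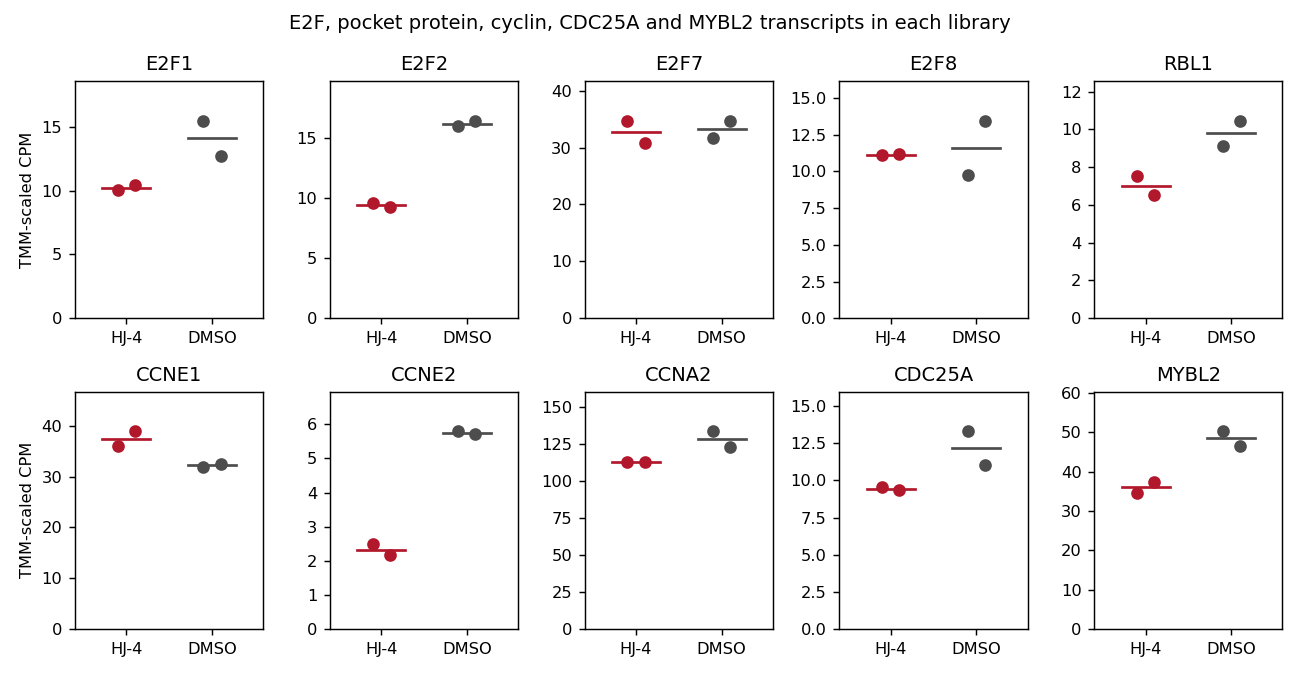
TMM-scaled CPM (linear axes from 0) of each of the 10 genes in the 2 HJ-4 and 2 DMSO libraries. Points are libraries and horizontal lines are condition means. Axes differ between genes, and CCNE2 and E2F2 show the widest gaps between conditions relative to their levels, while the points of E2F7 and E2F8 overlap.

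E2F2, an activator E2F, had 326 and 310 counts in the HJ-4 libraries, against 501 and 495 counts in the DMSO libraries. In CPM this was 9.57 and 9.29 with HJ-4, against 16.0 and 16.4 with DMSO. The libraries of each condition lay close together and well apart from those of the other, and edgeR gave a log2 fold change of -0.78 ± 0.11 SE (adjusted p = 0.11, against 0.00099 in DESeq2). It ran from -0.81 to -0.76 over 12 alternatives. E2F1, the founding activator of the family, had 10.1 and 10.4 CPM in the HJ-4 libraries, against 15.5 and 12.7 CPM in the DMSO libraries. The DMSO libraries differed more from each other than the HJ-4 libraries did, and both lay above them. For E2F1, edgeR gave -0.46 ± 0.14 SE on the log2 scale (adjusted p = 0.26), and this was -0.31 without DMSO replicate 1 and -0.60 without DMSO replicate 2. E2F1 lies on chromosome 20 of GRCh38 from 33675477 to 33686385 and E2F2 on chromosome 1 from 23506438 to 23531233, both on the minus strand, and neither overlaps another annotated gene.

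The atypical repressors showed no such gap. E2F7 had 34.7 and 30.8 CPM with HJ-4, against 31.7 and 34.8 CPM with DMSO. E2F8 had 11.1 and 11.2 CPM with HJ-4, against 9.78 and 13.5 CPM with DMSO, so that the HJ-4 libraries lay between the DMSO libraries. On the log2 scale the fold changes were -0.02 ± 0.11 SE for E2F7 and -0.06 ± 0.18 SE for E2F8, with edgeR adjusted p of 0.95 and 0.89. Their signs turned when DMSO replicate 2 was left out, to 0.048 for E2F7 and 0.19 for E2F8, and that of E2F7 also without HJ-4 replicate 2 (0.049).

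To set repressors against activators within a library, levels per kilobase of exon were summed for E2F7 and E2F8 and divided by the sum for E2F1 and E2F2. This ratio was 1.49 and 1.36 in the HJ-4 libraries, against 0.853 and 1.14 in the DMSO libraries. Both HJ-4 ratios exceeded both DMSO ratios, though the DMSO ratios lay further from each other than the nearest libraries of the 2 conditions did. The mean difference was 0.54 on the log2 scale (exact permutation test over libraries, two-sided p = 0.333, the smallest that 2 libraries against 2 can give). The difference ran from 0.33 without DMSO replicate 1 to 0.74 without DMSO replicate 2. Of the summed per-kilobase level of the 8 genes E2F1 to E2F8, the activators E2F1, E2F2 and E2F3 made up 15.2% and 17.2% in the HJ-4 libraries, against 20.7% and 24.1% in the DMSO libraries. E2F4 and E2F5, which act mostly as repressors with pocket proteins in resting cells, made up 59.3% and 56.9% with HJ-4, against 55.3% and 52.3% with DMSO. A share also rises when another share falls. The levels of E2F4 and E2F5 themselves overlapped between conditions (log2 fold changes 0.03 and 0.18, edgeR adjusted p = 0.91 and 0.53). The share of E2F7 and E2F8 overlapped too, at 14.9% and 14.5% with HJ-4, against 12.9% and 16.2% with DMSO. In every library it was below the share of the activators E2F1, E2F2 and E2F3.

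RBL1 encodes p107, a pocket protein whose gene is itself an E2F target. It had 7.52 and 6.53 CPM in the HJ-4 libraries, against 9.11 and 10.5 CPM in the DMSO libraries (edgeR log2 fold change -0.48 ± 0.15 SE, adjusted p = 0.26). The conditions did not overlap, though the gap between the nearest libraries was little wider than that between replicates. CDC25A, the phosphatase that activates CDK2, had 9.57 and 9.32 CPM with HJ-4, against 13.3 and 11.1 CPM with DMSO (edgeR log2 fold change -0.37 ± 0.14 SE, adjusted p = 0.31). Its value rested in part on DMSO replicate 1, the higher of the DMSO libraries, since it was -0.23 without that library and -0.50 without DMSO replicate 2. MYBL2 encodes B-Myb, which joins the MuvB complex in activating genes of mitosis. It had 34.6 and 37.3 CPM with HJ-4, against 50.3 and 46.6 CPM with DMSO, and all 12 alternatives kept it between -0.50 and -0.36 (edgeR log2 fold change -0.43 ± 0.10 SE, adjusted p = 0.20 and 0.032 in DESeq2). RBL1 lies on chromosome 20 from 36996349 to 37095997, MYBL2 on the same chromosome from 43667019 to 43716495, and CDC25A on chromosome 3 from 48157146 to 48188417. E2F7 lies on chromosome 12 from 77021248 to 77065569 and E2F8 on chromosome 11 from 19224063 to 19241620. The annotated genes that overlap RBL1, CDC25A and E2F8 have no row in the count table.

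**Figure D2:**
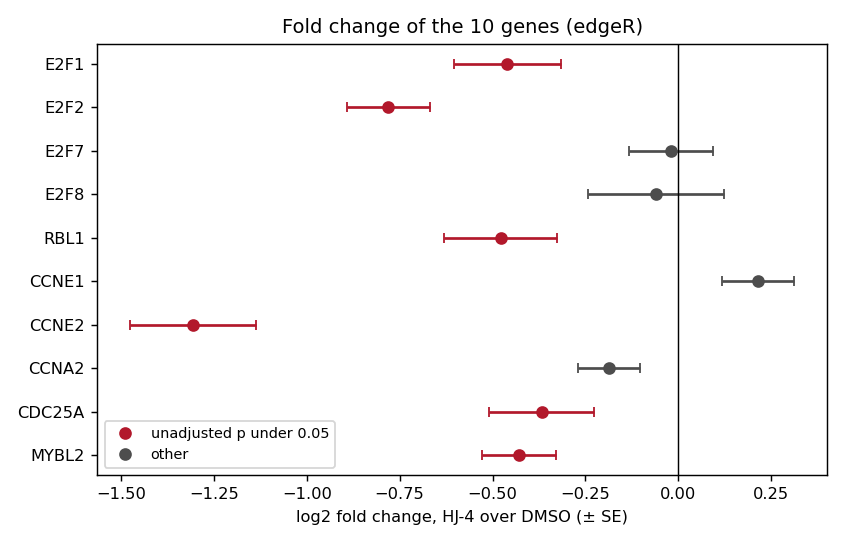
Log2 fold change (HJ-4 over DMSO, horizontal axis) of the 10 genes from edgeR with its standard error as bars. Red points have an unadjusted p under 0.05, and the values run from -1.31 for CCNE2 to 0.22 for CCNE1, with E2F7 and E2F8 near 0.

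Several of these genes are known to carry E2F sites close to their start, so the promoter sequences were read beside the expression values. RefSeq promoter windows on GRCh38.p14, from 250 bases before to 50 bases after a start site, were given for 8 of the 10 genes, with none for CCNE2 and E2F8. They were searched on both strands for the E2F-type motif in its 4 spellings TTTCCCGC, TTTGGCGC, TTTCGCGC and TTTGCCGC, which may overlap each other. The windows of E2F1, E2F2, RBL1 and CDC25A held it and those of E2F7, CCNE1, CCNA2 and MYBL2 did not, against 3.31% of the 35116 windows of the table and 4.73% of the 16248 windows of genes tested. The spellings were chosen after the expression values were seen. Of the 6 genes lower at an unadjusted p under 0.05, 4 held a match, MYBL2 did not, and CCNE2, with the log2 fold change farthest from 0, had no window. The sequences of the 4 with a match, from 80 bases before to 20 bases after the start, follow 5′ to 3′, with the matches in capitals.
E2F1 (chr20:33686366-33686465, minus strand): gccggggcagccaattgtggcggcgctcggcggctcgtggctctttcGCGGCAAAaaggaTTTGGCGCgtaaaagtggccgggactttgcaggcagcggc
E2F2 (chr1:23531214-23531313, minus strand): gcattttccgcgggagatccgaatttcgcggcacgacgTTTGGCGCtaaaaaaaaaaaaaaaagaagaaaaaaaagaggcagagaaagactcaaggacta
RBL1 (chr20:37095978-37096077, minus strand): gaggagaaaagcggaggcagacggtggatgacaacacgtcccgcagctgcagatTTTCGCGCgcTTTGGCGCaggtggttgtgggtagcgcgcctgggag
CDC25A (chr3:48188398-48188497, minus strand): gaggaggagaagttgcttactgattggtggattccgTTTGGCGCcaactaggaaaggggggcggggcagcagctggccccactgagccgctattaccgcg
In E2F1 the matches begin 33 and 20 bases before the start, in RBL1 26 and 16 bases before it, in E2F2 42 bases and in CDC25A 44 bases before it. The match of E2F1 at 33 bases is to TTTGCCGC on the opposite strand, and the other 5 are on the strand of the gene.

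The same stretch is given for the other 4 genes with a window, so that those with and without a match can be read side by side. MYBL2 and CCNA2 lay below DMSO in both HJ-4 libraries, CCNE1 lay above, and E2F7 overlapped. None of the 4 holds any of the 4 spellings in its window, which says only that these letters are not there.
MYBL2 (chr20:43667034-43667133, plus strand): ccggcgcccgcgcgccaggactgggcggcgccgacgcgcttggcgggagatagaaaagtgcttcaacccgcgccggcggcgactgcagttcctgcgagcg
CCNA2 (chr4:121823864-121823963, minus strand): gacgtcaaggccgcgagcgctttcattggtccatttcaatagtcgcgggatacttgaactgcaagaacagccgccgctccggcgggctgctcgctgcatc
CCNE1 (chr19:29811911-29812010, plus strand): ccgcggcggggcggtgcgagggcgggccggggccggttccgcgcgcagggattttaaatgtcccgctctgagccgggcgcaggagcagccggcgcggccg
E2F7 (chr12:77065550-77065649, minus strand): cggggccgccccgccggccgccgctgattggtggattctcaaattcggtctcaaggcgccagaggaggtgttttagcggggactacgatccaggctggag

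Among the E cyclins, which bind CDK2 at the G1/S transition, CCNE2 and CCNE1 stood on opposite sides of their DMSO levels. CCNE2 had 85 and 72 counts in the HJ-4 libraries, against 182 and 172 counts in the DMSO libraries, the fewest of the 10 genes. This was 2.50 and 2.16 CPM with HJ-4, against 5.80 and 5.72 CPM with DMSO. Both HJ-4 libraries were thus below 0.5 times either DMSO library, and edgeR gave a log2 fold change of -1.31 ± 0.17 SE (adjusted p = 0.10, against 0.0013 in DESeq2). Over 11 alternatives it ran from -1.40 to -1.22. CCNE1, in contrast, had 36.0 and 39.0 CPM with HJ-4, against 32.0 and 32.6 CPM with DMSO. Each HJ-4 library exceeded each DMSO library, and the edgeR log2 fold change of 0.22 ± 0.10 SE (adjusted p = 0.36) stayed between 0.14 and 0.28 over 12 alternatives.
The balance of the pair within a library does not depend on the scaling. CCNE2 counts were 0.0694 and 0.0554 times the CCNE1 counts in the HJ-4 libraries, against 0.181 and 0.176 times in the DMSO libraries. The difference in log2 ratio was -1.52 (SD 0.23 between HJ-4 libraries and 0.03 between DMSO libraries, n = 2 each, exact permutation test, two-sided p = 0.333, the smallest possible), and it ran from -1.69 to -1.36 with a library left out.

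**Figure D3:**
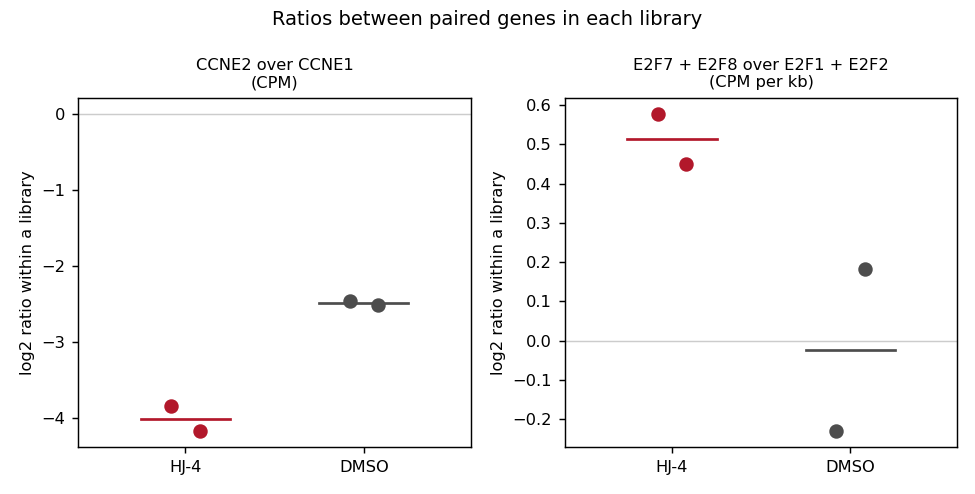
Log2 ratio within each library of CCNE2 to CCNE1 (left, from CPM) and of E2F7 plus E2F8 to E2F1 plus E2F2 (right, from CPM per kilobase), for the 2 HJ-4 and 2 DMSO libraries. Points are libraries and lines are means; the CCNE2 to CCNE1 log2 ratio lies at -3.85 and -4.17 with HJ-4 and at -2.46 and -2.51 with DMSO.

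CCNA2, the A cyclin of S phase and G2, was the most abundant of the 10 genes. It had 113 CPM in each HJ-4 library, against 134 and 123 CPM in the DMSO libraries (edgeR log2 fold change -0.19 ± 0.08 SE, adjusted p = 0.36). CCNA1, the germline A cyclin, was at 0 in every library. CCNE1 lies on chromosome 19 from 29811991 to 29824312, CCNA2 on chromosome 4 from 121816444 to 121823883, and CCNE2 on chromosome 8 from 94879770 to 94896678. CCNE2 overlaps INTS8 and NDUFAF6 on the opposite strand and CCNA2 overlaps EXOSC9, and no source used here states whether strand was used in counting. INTS8 had 90.0 and 75.6 CPM with HJ-4, against 93.8 and 98.5 CPM with DMSO. NDUFAF6 had 5.02 and 5.70 CPM with HJ-4, against 7.13 and 7.38 CPM with DMSO, a log2 fold change of -0.44 where CCNE2 had -1.31. EXOSC9, beside CCNA2, had a log2 fold change of 0.10. The part of shared reads in the CCNE2 and CCNA2 values was not tested.

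Per kilobase of exon the 10 genes spanned a wide range, with CCNA2 at the top and CCNE2 at the bottom in both conditions. With HJ-4, CCNA2 was at 41.0 ± 0.09 CPM per kilobase, CCNE1 at 15.2 ± 0.86, MYBL2 at 13.0 ± 0.67 and E2F7 at 5.21 ± 0.43 (SD, n = 2). With DMSO, CCNA2 was at 46.7 ± 2.66 CPM per kilobase, MYBL2 at 17.4 ± 0.93, CCNE1 at 13.1 ± 0.17, E2F7 at 5.28 ± 0.35 and E2F1 at 5.24 ± 0.73 (SD, n = 2). CCNE1 thus stood above MYBL2 with HJ-4 and below it with DMSO, outside the range of the replicates in both conditions. The SD does not cover error in gene length, taken here as the union of annotated exons, so orders between genes depend on the annotation. E2F7 and E2F1 could not be told apart with DMSO, whereas both HJ-4 libraries had E2F7 above E2F1, which was at 3.81 ± 0.09 CPM per kilobase. With DMSO, E2F2 (2.97 ± 0.06), CDC25A (2.94 ± 0.38) and E2F8 (2.81 ± 0.63) overlapped, while with HJ-4 their values of 1.73 ± 0.04, 2.28 ± 0.04 and 2.70 ± 0.0035 CPM per kilobase did not (SD, n = 2 each). RBL1 and CCNE2 were lowest in both conditions, at 1.18 ± 0.12 and 0.529 ± 0.05 CPM per kilobase with HJ-4 and 1.64 ± 0.16 and 1.31 ± 0.01 with DMSO (SD, n = 2 each).

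The other genes of the pathway were followed in 6 lists, in which edgeR called 0 genes at an adjusted p under 0.05, with counts at an unadjusted p and in DESeq2 given beside each. Among all genes tested, 7.93% were lower and 7.93% higher at an unadjusted edgeR p under 0.05, and DESeq2 called 1.76% lower and 2.33% higher. The remaining E2F genes, their DP partners and the other pocket proteins had a median log2 fold change of 0.04 over 8 genes, which was -0.041 without DMSO replicate 2. Of these 8, 1 was lower and 0 were higher at an unadjusted p under 0.05 in edgeR, and DESeq2 called 0. RB1, the retinoblastoma gene, had a log2 fold change of -0.30, its relative RBL2 of 0.20, the DP partner TFDP1 of -0.19 and the activator E2F3 of -0.43. For RB1 both HJ-4 libraries (51.1 and 46.7 CPM) lay below both DMSO libraries (59.2 and 61.1 CPM), and for E2F3 the conditions overlapped.
Of 7 genes of the MuvB core with FOXM1 and MYBL1, 1 had an unadjusted edgeR p under 0.05 in the lower direction and 0 in the higher. DESeq2 called 1 of the 7 lower and 0 higher. Their median was -0.19 and ran from -0.15 to -0.086 with a library left out, -0.086 being without DMSO replicate 2. MYBL1, the A-Myb gene, had 15.7 and 15.6 CPM with HJ-4, against 22.4 and 25.7 CPM with DMSO (log2 fold change -0.62, with adjusted p = 0.16 in edgeR and 0.010 in DESeq2). FOXM1, the forkhead factor of G2 genes, had -0.23, and the MuvB subunit genes LIN52 and LIN54 had 0.25 and -0.19.

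Of the 12 kinase partners, activators and inhibitors of the E and A cyclins, 11 were tested, with a median of -0.22, with 1 below and 2 above DMSO at an unadjusted edgeR p under 0.05, and 1 called higher by DESeq2. The median was nearer 0 whichever library was left out, at -0.13 and -0.13 without HJ-4 replicates 1 and 2, and at -0.14 and -0.10 without DMSO replicates 1 and 2. The gene called by DESeq2 was CDKN1A, which encodes the CDK inhibitor p21, at 388 and 435 CPM with HJ-4, against 287 and 224 CPM with DMSO (log2 fold change 0.69, adjusted p = 0.0015 from DESeq2 and 0.17 from edgeR). CDK2, the kinase that cyclins E and A activate, had 58.6 and 53.5 CPM with HJ-4, against 72.8 and 65.1 CPM with DMSO (log2 fold change -0.30). CDC25B, a CDC25A relative acting at mitosis, had a log2 fold change of 0.35, against -0.37 for CDC25A, and CKS2, a CDK docking subunit, had -0.24.
A further list held 10 genes whose products promote or oppose the turnover of E2F1, the cyclins and CDC25A. In this list 4 had an unadjusted edgeR p under 0.05 in the lower direction and 0 in the higher. Of the list, 2 were called lower by DESeq2, and the median was -0.18. CCNF, whose protein cyclin F is a ubiquitin ligase subunit that targets E2F factors, had 62.9 and 66.6 CPM with HJ-4, against 99.2 and 88.4 CPM with DMSO (log2 fold change -0.53, adjusted p = 0.15 from edgeR and 0.0013 from DESeq2). FZR1, an activator of the anaphase-promoting complex, had -0.33, its inhibitor gene FBXO5 (EMI1) had -0.33 and the deubiquitinase gene USP37 had -0.40. FBXW7 and SKP2, ubiquitin ligase subunits for cyclin E and for its inhibitor p27, had 0.09 and 0.02.

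**Figure D4:**
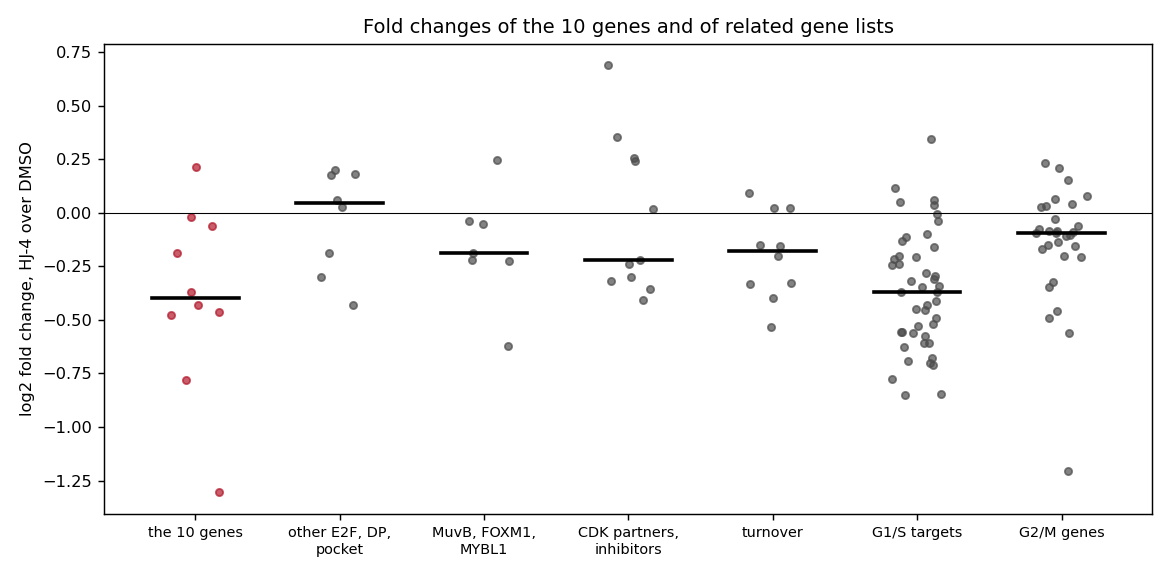
Log2 fold change (HJ-4 over DMSO, vertical axis) of each tested gene among the 10 genes (red) and 6 related lists (grey). Points are genes and black lines are medians, at -0.40 for the 10 genes, -0.37 for the G1/S targets and -0.10 for the G2/M genes.

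Classic target genes of E2F at the G1/S transition had a median near that of the 10 genes. Of 45 G1/S targets, 40 had a value below 0, against 6922 of all 14044 genes tested, and the median was -0.37. In edgeR, 28 had an unadjusted p under 0.05 in the lower direction and 1 in the higher, and DESeq2 called 15 lower. The endonuclease gene FEN1 (-0.84), the origin recognition gene ORC1 (-0.85), the polymerase gene POLE (-0.61) and the thymidine kinase gene TK1 (-0.70) had the smallest p. Both HJ-4 libraries lay below both DMSO libraries for 31 of the 45, against 25.6% of all genes. The E2F-type motif was in a promoter window of 21 of the 38 G1/S targets that matched the table, against 6.46% of genes tested. The list was drawn from known E2F targets, and the list and the spellings were chosen with values of these data known. This share and the expression counts of the list are therefore no independent results. Of 30 genes of G2 and mitosis, 22 had a value below 0, the median was -0.10, edgeR gave 4 with an unadjusted p under 0.05 in the lower direction and 1 in the higher, and DESeq2 called 3 lower. Both HJ-4 libraries lay below both DMSO libraries for 8 of these 30 and above them for 1, against 25.6% and 25.2% of all genes. The motif was in a window of 2 of the 25 that matched. The proliferation antigen gene MKI67 had 91.5 and 90.1 CPM with HJ-4, against 172 and 247 CPM with DMSO (log2 fold change -1.20), and CDCA3, AURKB and BIRC5, genes of mitotic entry and chromosome segregation, had -0.56, -0.46 and -0.49.
In the G2/M genes the DMSO libraries themselves stood apart. DMSO replicate 2 exceeded DMSO replicate 1 by a median of 0.35 on the log2 scale, and their summed level was 2568 to 2580 CPM with HJ-4, against 2440 to 3194 CPM with DMSO. For the 10 genes the median difference between the DMSO libraries was 0.00 and for the G1/S targets 0.02, with genes going both ways. Regardless of sign, it was 0.13 for the 10 genes, 0.13 for the G1/S targets and 0.35 for the G2/M genes. Without DMSO replicate 2 the median of the G2/M genes was 0.069, without DMSO replicate 1 it was -0.31, and that of the G1/S targets stayed between -0.40 and -0.33. Over the same choices the median of the 10 genes stayed between -0.43 and -0.29. The part of the difference between the DMSO libraries in the values of single genes such as E2F8 was not tested.

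The genes whose profile over the 4 libraries was nearest to the median profile of the 10 genes, among 11173 others with a mean of at least 5 CPM, were DYRK3, MDC1, CBFB, SLC45A4 and CFAP410. Likeness was the root mean square distance between centred log2 CPM profiles, at 0.0071 to 0.0098 for these 5. Their log2 fold changes ran from -0.34 for SLC45A4 to -0.32 for DYRK3, and 4 libraries give few points for such a likeness.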

How the data were processed

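Whole-number counts of reads per gene were deposited by the authors in a single table, with no normalization. Both the paper and the submitters' processing notes name FastQC and Trimmomatic, but the paper goes on to STAR on GRCh38 and featureCounts, and the notes to HISAT2, bedtools and RSEM. Which route led to the table, with which annotation and strand setting, was not given in the sources used here. A counter that shares or drops reads of overlapping genes would move their counts. Columns were matched to samples by library name, and symbols, positions and exon lengths came from GENCODE version 44, in which 20148 of 20263 IDs matched.

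Genes kept by filterByExpr (14044) were TMM-scaled. The quasi-likelihood test of edgeR 4.0.16 (R 4.3.3; glmQLFit, glmQLFTest) compared HJ-4 with DMSO without covariates, and p-values were adjusted by Benjamini-Hochberg across these genes. The paper names limma; edgeR was used because the values are counts. Standard errors of log2 fold changes were derived from the F statistic, and per-kilobase levels divide CPM by the union of exons. DESeq2 1.42.0 (Wald test), limma-voom (limma 3.58.1), other scalings and filters, a replicate block and leaving out each library were the alternatives, and the tests were first run on simulated counts. Named genes are the 10 genes, up to 4 genes of each list with the smallest p, and the 5 nearest profiles; further genes named beside them were chosen after their values were seen. The 10 genes and the lists were chosen with earlier results of these data known. Promoter sequences were those of RefSeq on GRCh38.p14. The motif spellings were chosen after the expression values were seen.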

Additional observations from a re-analysis of the deposited data

How the results depend on the processing

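The directions of CCNE2, E2F2, MYBL2, E2F1, RBL1, CDC25A, CCNA2 and CCNE1 were the same in every alternative fitted; CCNE2 was not tested with a mean of at least 5 CPM. With a library left out, E2F7 ran from -0.095 to 0.049, above 0 without HJ-4 replicate 2 (0.049) or DMSO replicate 2 (0.048), and E2F8 from -0.27 to 0.19, above 0 without DMSO replicate 2. The number of the 10 genes called was 0 in edgeR and 3 with DESeq2's Wald test, and it was 0 in every other alternative. The number lower at an unadjusted p under 0.05 was 6, against 3 at an unadjusted p under 0.01. This number was 5 with DESeq2, 5 with limma-voom, 7 with scaling by total counts and 4 with a mean of at least 5 CPM. CDC25A was near the threshold, with an unadjusted p of 0.049 in edgeR, 0.088 in DESeq2 and 0.052 in limma-voom. The genes called among all genes numbered 7, against 574 with DESeq2, 12 with no filter, 46 with robust quasi-likelihood fitting, 67 at an adjusted p under 0.1 and 0 to 88 with a library left out (0 without either HJ-4 library, 88 without DMSO replicate 1 and 34 without DMSO replicate 2). With a library left out, 1 arm holds 1 library, assumed to vary like the other pair, from which alone the spread comes, so such counts bear little weight. The median of the 10 genes was -0.40, and -0.43 to -0.29 with a library left out. The median of the other E2F, DP and pocket protein genes ran from -0.041 to 0.11 and that of the G2/M genes from -0.31 to 0.069, both reversed without DMSO replicate 2; the cause was not tested. That of the kinase partners (-0.22) ran from -0.14 to -0.10. Same-numbered libraries did not deviate together (correlation of deviations across genes -0.04), so the numbers were not taken as pairs. With the replicate block 31 genes were called, 0 of the 10 among them, and 5 of the 10 were lower at an unadjusted p under 0.05. With 72 to 182 counts, CCNE2 has the lowest depth of the 10 genes.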
